A study of Mus musculus with 10 samples.

Results

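The interferon regulatory factor (IRF) family was examined in the RNA-seq read counts of MAF9 cells, mouse leukemia cells made by transducing bone marrow with the fusion oncogene MLL-AF9. Members were taken by name from the rows of the count table, as Irf1, Irf2, Irf3, Irf4, Irf5, Irf7, Irf8 and Irf9, 8 of 24015 genes. All 8 passed the filter on low counts, as did 12971 genes in all.

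Every library came from C57BL/6 bone marrow cells that carried MLL-AF9 and were grown in IMDM with 15% serum and 10 ng/ml interleukin-3. The 5 groups of 2 libraries each received DMSO, the vehicle, or 1 of 4 inhibitors for 4 days at its IC50 dose: MM-401 (labelled MM401), which blocks binding of MLL1 to WDR5; EPZ5676 (EPZ), an inhibitor of the H3K79 methyltransferase DOT1L; MI-2-2 (MI), which blocks MENIN binding; and iBET, a bromodomain inhibitor. Concentrations were not given in the labels, and all groups share the oncogene and the cytokine. The number of donor mice behind the transduced cells was not stated. The series describes the libraries as biological duplicates without saying how the cultures were separated, so p-values measure the spread between these libraries.

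IRFs are transcription factors that bind a repeated GAAA core, the interferon-stimulated response element. In the interferon circuit, sensors of foreign nucleic acid activate Irf3 and Irf7, these switch on interferon genes, and secreted interferon acts through JAK kinases to assemble ISGF3, the complex in which Irf9 binds DNA. In the myeloid lineage the family also sets cell identity: Irf8, usually with the ETS factor PU.1, directs progenitors toward monocytes and dendritic cells and away from neutrophils.

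Libraries held 20394762 to 29473127 counted reads. DMSO replicate 2 stood apart from the other 9 libraries: it held 3630 reads from 4 genes of the Y chromosome (Uty, Kdm5d, Eif2s3y and Ddx3y) against 0 to 2 elsewhere, and its Xist level was 4.65 CPM (read counts scaled to a common library size) against 1030 to 2820. The replicates of DMSO correlated at r = 0.942 across tested genes, against 0.983 to 0.992 in the other groups, and 19.1% of genes lay over 2-fold apart between them against 3.2% to 5.87%. Y-linked reads with almost no Xist mark male cells, and Xist with almost no Y-linked reads marks female cells. DMSO replicate 2 and the other 9 libraries therefore do not come from a single donor mouse. The part of donor and sex in the differences from DMSO was not tested. Results against DMSO are also given without each DMSO library, where the lone control is assumed to vary like the other groups. Without DMSO replicate 1 that control is male and every treated library is female. In those fits treatment cannot be told apart from donor and sex.

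Marker genes of cell types moved with the treatments. Summed neutrophil markers lay at 748 to 3630 CPM in DMSO, 4600 to 6000 in MM-401, 49200 to 67400 in EPZ5676, 44100 to 44700 in MI-2-2 and 504 to 1170 in iBET. All 9 measured markers rose with EPZ5676 and with MI-2-2, 3 fell with iBET, and 0 were called with MM-401. Progenitor markers summed to 10400 to 14200 CPM in DMSO, 11300 to 11700 in MM-401, 3360 to 3620 in EPZ5676, 2390 to 3090 in MI-2-2 and 6550 to 7350 in iBET. Of 10, 8 were lower in each of EPZ5676 and MI-2-2, 2 in iBET and 0 in MM-401. Monocyte and macrophage markers summed to 376 to 630 CPM in DMSO, 488 to 639 in MM-401, 688 to 768 in EPZ5676, 766 to 1060 in MI-2-2 and 188 to 258 in iBET. Of these 10 markers, 6 rose with EPZ5676 and 7 with MI-2-2, with iBET 1 rose and 1 fell, and with MM-401 0 were called. Of 10 dendritic cell markers, 7 stayed below 1 CPM in every library, among them Zbtb46, Xcr1 and Siglech. B cell markers summed to 38.1 CPM in DMSO replicate 2 and to 0.309 to 8.9 in the other libraries. The part of these shifts in the results below was not tested, and in bulk RNA a change in the mix of cells and a change per cell cannot be told apart.

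The family split into 3 patterns. With EPZ5676 and MI-2-2, Irf1, Irf2, Irf4, Irf5, Irf7 and Irf9 were all higher than in DMSO, Irf1 with EPZ5676 short of the threshold, and Irf8 was not called. With iBET, Irf8 rose to the highest levels of the series, Irf5 and Irf7 rose, and Irf4 was not called. MM-401 gave no called member.

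In numbers, the quasi-likelihood test of edgeR, adjusted by the Benjamini-Hochberg method and read at 0.05, called 5 members higher with EPZ5676 and 0 lower, where 18.7% of all genes tested were higher and 19.4% lower. MI-2-2 gave 6 members higher and 0 lower, beside 20.2% and 21.2% of all genes. iBET gave 5 higher and 0 lower, beside 6.38% and 7.54%. MM-401 gave 0 members, beside 0% of genes higher and 0% lower. At an unadjusted p under 0.05, MM-401 had 0 members and 1450 genes, and DESeq2 called 0 members and 297 genes. Without DMSO replicate 1, MM-401 gave 1 member higher (Irf9) beside 5.96% of genes, EPZ5676 gave 5 higher and 1 lower (Irf8) beside 25.5% and 25.5%, MI-2-2 gave 6 higher beside 27%, and iBET gave 7 higher beside 13.9%. Without DMSO replicate 2, the counts were 5 higher beside 18.9% with EPZ5676, 7 higher beside 20.4% with MI-2-2, and 3 higher beside 9.76% with iBET. Single treated libraries mattered as well, for members and for all genes. Without EPZ5676 replicate 1 or 2 the member count was 2 or 3, while genes called in either direction went from 38.1% to 25.5% or 19.7%. Without iBET replicate 1 or 2 it was 0, with 4 and 6 members at an unadjusted p under 0.05, and genes called went from 13.9% to 1.96% and 1.12%.

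**Figure D1:**
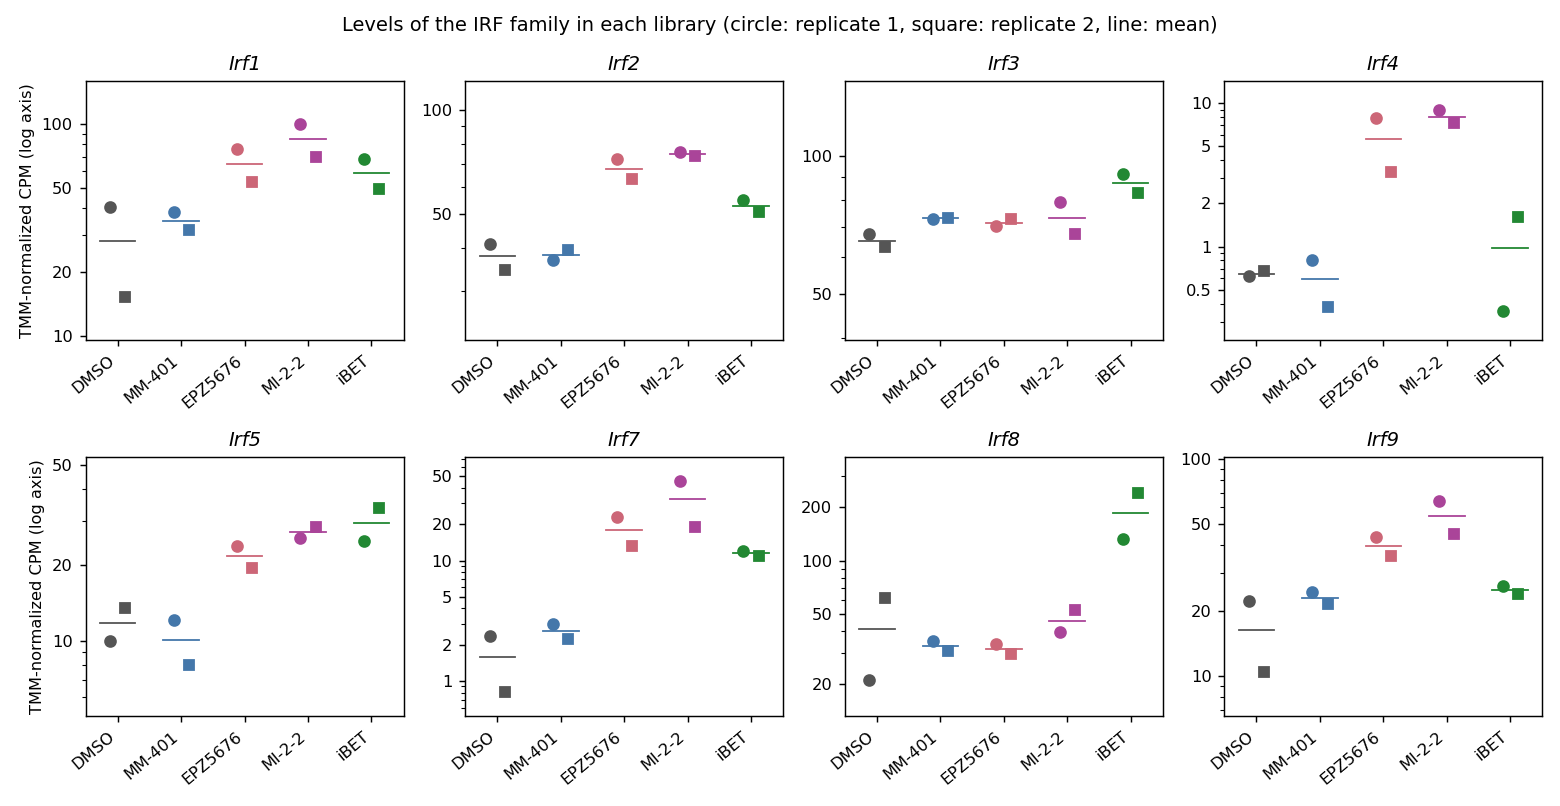
Level of each Irf gene in the 10 libraries, as TMM-normalized CPM on a log axis, by treatment, with replicate 1 as circles, replicate 2 as squares and the group mean as a line. Irf7 and Irf4 separate EPZ5676 and MI-2-2 from DMSO, Irf8 peaks in iBET at 132 and 242 CPM, and Irf3 lies between 63.2 and 91.1 CPM throughout.

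Levels of different members can be compared only per length, here as TMM-normalized CPM per kilobase of exon. In DMSO, Irf3 was the most abundant at 19 CPM per kb, followed by Irf1 at 7.06, Irf8 at 5.84, Irf2 at 5.11, Irf5 at 4.04 and Irf9 at 3.04. Irf7 at 0.417 and Irf4 at 0.132 CPM per kb were far below these. This order changed with treatment. In MI-2-2, Irf1 reached 21.2 CPM per kb beside 21.3 for Irf3, and Irf7 reached 8.53. In iBET, Irf8 stood at 26.5 CPM per kb beside 25.3 for Irf3. Across the 10 libraries the highest level was 55.9 times the lowest for Irf7, 25.3 times for Irf4 and 11.5 times for Irf8, against 2.2 times for Irf2 and 1.44 times for Irf3.

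Promoter sequence was available for all 8 members, as 11 RefSeq promoters (GRCm38.p6) of 250 bases before to 50 bases after a transcription start. The counts were made on mm9, so these coordinates place the sequence only. Of 4 motifs searched on both strands, the IRF element GAAANNGAA occurred in Irf2 alone among the members and in 8.56% of 32851 promoters of all genes. The gamma-activated site TTCNNNGAA, a sequence bound by STAT dimers, occurred in Irf1, Irf2 and Irf8 and in 8.3% of promoters. The ETS-IRF composite GGAANNGAA occurred in Irf2, overlapping its IRF element, and in 8.24% of promoters, and the PU.1 site GAGGAAGT occurred in 0 members and in 3.2% of promoters. A match is a description of letters and not a binding site. The 4 stretches below show the members with a match, and Irf7 because its level ranged most widely, with matched letters in capitals and each sequence written 5′ to 3′ on the strand of the gene. They lie at chr11:53769894-53769953 (plus strand) for Irf1, chr8:46739495-46739554 (plus) for Irf2, chr8:120736168-120736227 (plus) for Irf8 and chr7:141266425-141266484 (minus) for Irf7.
Irf1: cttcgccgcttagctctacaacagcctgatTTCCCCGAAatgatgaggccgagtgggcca
Irf2: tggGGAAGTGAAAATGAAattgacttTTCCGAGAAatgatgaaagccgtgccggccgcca
Irf8: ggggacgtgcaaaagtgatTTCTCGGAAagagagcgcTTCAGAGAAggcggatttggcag
Irf7: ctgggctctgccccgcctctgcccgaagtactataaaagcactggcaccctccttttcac
In Irf2 the capitals hold the composite and the IRF element as 1 run, then the gamma-activated site. Irf8 carries 2 gamma-activated sites, which start at -171 and -153 from the transcription start, while that of Irf1 starts at -90. The Irf7 stretch, the 60 bases just before the start, held no match.

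Irf9 is the subunit of ISGF3 that recognizes DNA. Its TMM-normalized CPM were 22.2 and 10.5 in DMSO, 24.4 and 21.4 in MM-401, 43.9 and 35.9 in EPZ5676, 63.9 and 45.2 in MI-2-2, and 26 and 24 in iBET (replicates 1 and 2 throughout). The EPZ5676 and MI-2-2 libraries lay above all others, MM-401 overlapped DMSO, and both iBET libraries lay just above DMSO. Irf9 rose 2.43-fold with EPZ5676 (log2 1.28, SE 0.33, adjusted p = 0.0183, edgeR) and 3.33-fold with MI-2-2 (log2 1.73, SE 0.333, adjusted p = 0.00542). The difference of iBET from DMSO was 0.61 on the log2 scale (95% interval -0.15 to 1.36, adjusted p = 0.24, edgeR). DMSO replicate 2 held the lowest Irf9 level of the series: without DMSO replicate 1 the iBET difference was 1.25 (adjusted p = 0.0104) and the MM-401 difference 1.12 (adjusted p = 0.0324), and without DMSO replicate 2 they were 0.17 (0.626) and 0.03 (0.949). Without EPZ5676 replicate 1 or 2, the EPZ5676 call was lost at adjusted p = 0.0849 or 0.0512.

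Irf7 amplifies type I interferon production and is itself an interferon-stimulated gene. It showed the widest range of the family: 2.34 and 0.815 CPM in DMSO, 3 and 2.23 in MM-401, 22.9 and 13.3 in EPZ5676, 45.6 and 18.9 in MI-2-2, and 12.1 and 10.9 in iBET. All 6 libraries of EPZ5676, MI-2-2 and iBET lay above all 4 of DMSO and MM-401, and MM-401 overlapped DMSO. In edgeR's test Irf7 rose 20.1-fold with MI-2-2 (log2 4.33, SE 0.61, adjusted p = 0.00169), 11.3-fold with EPZ5676 (log2 3.5, SE 0.593, adjusted p = 0.00353) and 7.17-fold with iBET (log2 2.84, SE 0.583, adjusted p = 0.0197). These calls were kept without either DMSO library. The log2 values were then 5.3 and 3.82 for MI-2-2, 4.47 and 2.98 for EPZ5676, and 3.81 and 2.29 for iBET, larger each time without DMSO replicate 1. Without iBET replicate 1 or 2 the iBET difference was 2.77 or 2.92 and no longer called (adjusted p = 0.098 and 0.0898).

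Irf1 is an activator induced by interferon gamma, and Irf2 binds the same elements and can oppose it. Irf1 was measured at 40.8 and 15.3 CPM in DMSO, 38.4 and 31.6 in MM-401, 76 and 53.1 in EPZ5676, 99.3 and 69.4 in MI-2-2, and 68.5 and 49.1 in iBET. All EPZ5676, MI-2-2 and iBET libraries exceeded both DMSO libraries, which themselves differed widely. Irf1 rose 3-fold with MI-2-2 (log2 1.58, SE 0.433, adjusted p = 0.021, edgeR). The differences of 1.2 with EPZ5676 (adjusted p = 0.0586) and 1.06 with iBET (adjusted p = 0.132) missed the threshold. A block by replicate number pairs the male cells of DMSO replicate 2 with female cells of the treated groups. Under it the EPZ5676 and iBET differences were 1.28 (adjusted p = 0.00512, edgeR) and 1.15 (adjusted p = 0.017) and passed. Without DMSO replicate 1 they were 2.08 and 1.94, both called, and without DMSO replicate 2 they were 0.69 and 0.53, neither called. Without MI-2-2 replicate 1, the MI-2-2 difference of 1.31 was not called (adjusted p = 0.103).

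Irf2 varied less between replicates than Irf1. Its levels were 41.1 and 34.5 CPM in DMSO, 36.8 and 39.4 in MM-401, 72.2 and 63.2 in EPZ5676, 75.8 and 73.5 in MI-2-2, and 55 and 50.6 in iBET. The groups formed 3 steps that did not overlap, with DMSO and MM-401 lowest, iBET between, and EPZ5676 and MI-2-2 highest. Irf2 rose 1.79-fold with EPZ5676 (log2 0.84, SE 0.131, adjusted p = 0.00259, edgeR), 1.97-fold with MI-2-2 (log2 0.98, SE 0.131, adjusted p = 0.00141) and 1.4-fold with iBET (log2 0.48, SE 0.131, adjusted p = 0.047). The first 2 calls were kept without any single library of their groups, whereas the iBET call was lost without DMSO replicate 2 (0.36, adjusted p = 0.0966) or iBET replicate 1 or 2 (adjusted p = 0.224 and 0.151), with total-count scaling (0.089), with DESeq2 size factors (0.0564) and with no low-count filter (0.063).

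**Figure D2:**
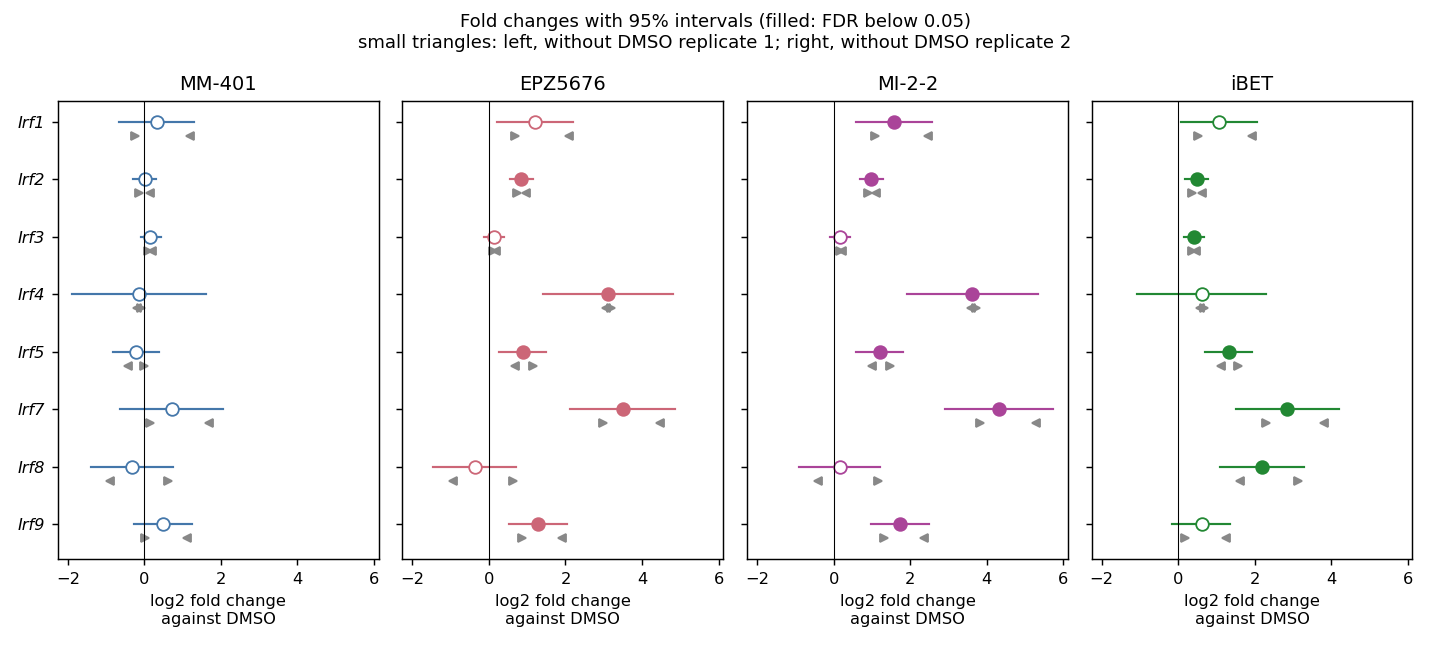
Difference of each inhibitor from DMSO for the 8 members, as log2 fold change with its 95% interval, filled where edgeR's test passed at 0.05, with small triangles for the value without DMSO replicate 1 (left-pointing) or 2 (right-pointing). Irf4 and Irf7 lie farthest to the right with EPZ5676 and MI-2-2, Irf8 is filled only in the iBET panel, and the triangles lie far apart for Irf1, Irf7, Irf8 and Irf9.

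Irf8 and Irf4 are the family members of blood cells that bind DNA chiefly with a partner such as PU.1. Irf8 drives the monocyte and dendritic cell programs. It was measured at 21.1 and 61.3 CPM in DMSO, 35.2 and 30.8 in MM-401, 33.8 and 29.7 in EPZ5676, 39.3 and 52.3 in MI-2-2, and 132 and 242 in iBET. Both iBET libraries lay above the other 8, and the DMSO pair spanned the range of MM-401, EPZ5676 and MI-2-2. Irf8 rose 4.54-fold with iBET (log2 2.18, SE 0.479, adjusted p = 0.0247, edgeR). The increase was 1.61 without DMSO replicate 1 (adjusted p = 0.0146) and 3.14 without DMSO replicate 2 (adjusted p = 0.00334). Without iBET replicate 1 or 2 it was 2.56 or 1.68 and no longer called (adjusted p = 0.0595 and 0.146). Monocyte and macrophage markers summed lower in both iBET libraries than in any other library. F13a1 was the largest part of this sum in DMSO, at 453 and 218 CPM, against 49.9 and 64.4 in iBET. Of the 10 markers, 1 was called higher and 1 lower with iBET, so the sum does not describe them as a set.

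For the other 3 inhibitors the direction of Irf8 depended on the DMSO library. The differences were -0.32 with MM-401, -0.37 with EPZ5676 (95% interval -1.45 to 0.7) and 0.16 with MI-2-2 (-0.91 to 1.22), none called. Without DMSO replicate 1, EPZ5676 was lower by a called -0.95 (adjusted p = 0.0434, edgeR) and MI-2-2 stood at -0.42. Without DMSO replicate 2, EPZ5676 stood at 0.62 (adjusted p = 0.198) and MI-2-2 was higher by a called 1.15 (adjusted p = 0.036, edgeR).

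Irf4 acts in lymphocytes, dendritic cells and macrophages. It was nearly silent in DMSO at 0.623 and 0.671 CPM (16 and 14 reads) and in MM-401 at 0.803 and 0.378, but reached 7.91 and 3.34 CPM in EPZ5676 and 8.93 and 7.23 in MI-2-2, with 0.354 and 1.61 in iBET. EPZ5676 and MI-2-2 lay above the other 6 libraries, and the iBET pair overlapped DMSO. Irf4 rose 8.64-fold with EPZ5676 (log2 3.11, SE 0.731, adjusted p = 0.0129, edgeR) and 12.4-fold with MI-2-2 (log2 3.63, SE 0.741, adjusted p = 0.00677). Both calls were kept without either DMSO library, at 3.06 and 3.19 with EPZ5676 and 3.58 and 3.72 with MI-2-2. Without EPZ5676 replicate 1 the difference of 2.36 missed the threshold (adjusted p = 0.0699). The iBET difference was 0.61 (95% interval -1.07 to 2.3, adjusted p = 0.602).

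Irf5 acts below Toll-like receptors through the adaptor MyD88 and is typical of macrophages. Levels were 9.93 and 13.5 CPM in DMSO, 12.1 and 8.02 in MM-401, 23.8 and 19.4 in EPZ5676, 25.5 and 28.3 in MI-2-2, and 24.9 and 33.6 in iBET. The 6 libraries of the last 3 groups lay above the 4 of DMSO and MM-401. Irf5 rose 1.84-fold with EPZ5676 (log2 0.88, SE 0.266, adjusted p = 0.0326, edgeR), 2.3-fold with MI-2-2 (log2 1.2, SE 0.266, adjusted p = 0.00935) and 2.5-fold with iBET (log2 1.32, SE 0.267, adjusted p = 0.0191). DMSO replicate 2 was the higher control here, and without DMSO replicate 1 the EPZ5676 difference was 0.68 and not called (adjusted p = 0.0897), nor was it with total-count scaling (0.72, adjusted p = 0.0595). Single treated libraries decided other calls: the adjusted p was 0.141 and 0.0666 without EPZ5676 replicate 1 and 2, 0.0548 without MI-2-2 replicate 2, and 0.0594 and 0.127 without iBET replicate 1 and 2.

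Irf3, which is made constitutively and is switched on by phosphorylation, was the steadiest member. It stood at 67.4 and 63.2 CPM in DMSO, 72.9 and 73.1 in MM-401, 70.2 and 72.7 in EPZ5676, 79.1 and 67.5 in MI-2-2, and 91.1 and 83 in iBET. The iBET pair lay above the rest. Irf3 rose 1.33-fold with iBET at an adjusted p just under the threshold (log2 0.42, SE 0.115, adjusted p = 0.0499, edgeR), a call lost without DMSO replicate 2 (0.37, adjusted p = 0.0866) or iBET replicate 1 or 2 (adjusted p = 0.244 and 0.146), and with each other scaling or filter tried (adjusted p = 0.0537 to 0.0837). The intervals for EPZ5676 (-0.14 to 0.4) and MI-2-2 (-0.1 to 0.43) were narrow, and with total-count scaling the EPZ5676 difference turned from 0.13 to -0.04.

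MM-401 offers a second baseline, whose fold changes do not use the DMSO levels. The DMSO libraries still enter the estimate of spread behind the p-values. Against MM-401, EPZ5676 gave 4 members higher, Irf2, Irf4, Irf5 and Irf7, beside 16.7% of all genes. MI-2-2 gave the same 4 and Irf9, beside 18% of genes, and iBET gave Irf5, Irf7 and Irf8, beside 5.48%. Irf7 was 6.93-fold higher with EPZ5676 (adjusted p = 0.00881, edgeR), 12.3-fold with MI-2-2 (adjusted p = 0.00365) and 4.39-fold with iBET (adjusted p = 0.047). Irf8 was 5.66-fold higher with iBET (log2 2.5, SE 0.485, adjusted p = 0.0179, edgeR), and Irf4 was 9.45-fold higher with EPZ5676 and 13.6-fold with MI-2-2. With the replicate block, Irf1 and Irf9 with EPZ5676 (0.86 and 0.79), Irf1 with MI-2-2 (1.25) and Irf2 with iBET (0.47) were called too, at adjusted p = 0.0251, 0.0258, 0.0058 and 0.0291 (edgeR). Fits of only the 2 groups, which leave DMSO out, added Irf1 and Irf9 with EPZ5676, Irf1 with MI-2-2, and Irf1 and Irf2 with iBET. Genes called there were 45.6%, 51.4% and 35%. The EPZ5676 count fell to 2 without MM-401 replicate 1 or EPZ5676 replicate 1 and to 1 without MM-401 replicate 2, and the MI-2-2 count to 2 without MM-401 replicate 2. The iBET count fell to 1 without MM-401 replicate 1 and to 0 without MM-401 replicate 2 or iBET replicate 2, where 4 members each had an unadjusted p under 0.05. Genes called in these fits fell as well, to 11.6% to 19.6% from 33.3% with EPZ5676, to 12.9% from 35.7% with MI-2-2, and to 1.37% to 1.99% from 11.4% with iBET.

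**Figure D3:**
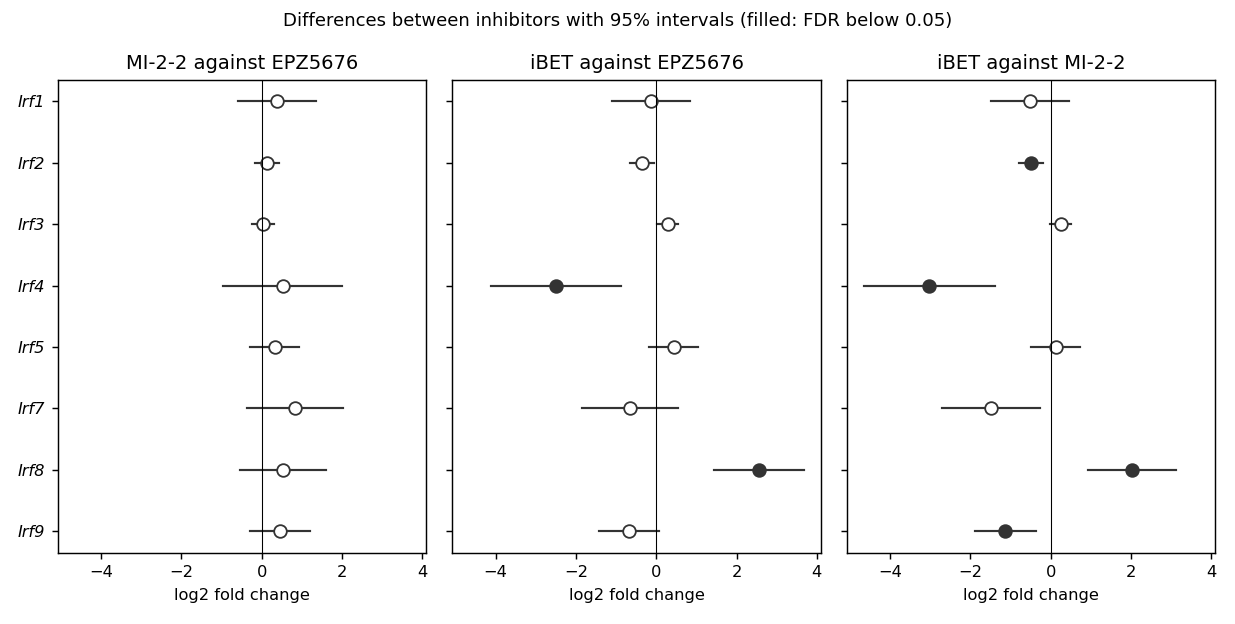
Differences between pairs of inhibitors for the 8 members, as log2 fold change with the 95% interval, filled where edgeR's test passed at 0.05. No member is filled for MI-2-2 against EPZ5676, whereas Irf4 lies to the left and Irf8 to the right in both comparisons of iBET.

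Between EPZ5676 and MI-2-2, 0 members were called, beside 0.00771% of all genes higher and 0.00771% lower. At an unadjusted p under 0.05 there were 0 members, and DESeq2 called 0. All 8 members had a point estimate higher in MI-2-2. The 95% intervals of the log2 difference ran from -0.37 to 2.03 for Irf7, -0.59 to 1.36 for Irf1, -0.96 to 2.01 for Irf4 and -0.16 to 0.44 for Irf2, and over the family they leave room for differences above 2-fold except in Irf2, Irf3 and Irf5.

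iBET differed from both in opposite directions at Irf4 and Irf8. Against EPZ5676, 1 member was higher with iBET, beside 18.5% of all genes, and 1 was lower, beside 19.1%. Irf8 was 5.89-fold higher (log2 2.56, SE 0.487, adjusted p = 0.00545, edgeR), and Irf4 was lower by -2.5 (SE 0.701, adjusted p = 0.0252). With the replicate block, Irf2 (-0.36, adjusted p = 0.0332) and Irf9 (-0.66, 0.0439) were called lower too, for 4 members, while genes called went from 37.6% to 47.8%. The Irf8 call was kept without any single library of these groups, and the Irf4 call was lost without EPZ5676 replicate 1 (-1.75, adjusted p = 0.147) or iBET replicate 1 (-1.8, adjusted p = 0.0996).

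Against MI-2-2, 1 member was higher with iBET, beside 19.1% of genes, and 3 were lower, beside 19.7%. Irf8 was 4.08-fold higher (log2 2.03, SE 0.476, adjusted p = 0.0128, edgeR). Irf4 was lower by -3.02 (SE 0.71, adjusted p = 0.0129, edgeR), Irf9 by -1.13 (SE 0.327, adjusted p = 0.0282) and Irf2 by -0.5 (SE 0.13, adjusted p = 0.0191). Irf7, at -1.49, missed the threshold (adjusted p = 0.0564) and passed with the replicate block (-1.34, adjusted p = 0.00991). No member was called without MI-2-2 replicate 1, where 4 had an unadjusted p under 0.05, and 1 was called without iBET replicate 1 (Irf8) or iBET replicate 2 (Irf4), while genes called went from 38.8% to 21.1%, 21.1% and 15.6%.

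The genes around the family in the interferon pathway were counted from 8 lists. Counted reads of the interferons themselves were close to absent. Of 15 ligand genes, 11 had no read in any library, none passed the filter, and the largest total over the 10 libraries was 17 reads. How reads shared between genes were handled was not given, so a ligand gene without reads may still be transcribed. MM-401 gave 0 called genes in every list with edgeR and 1 with DESeq2 in each of 4 lists, and 0 to 4 genes a list had an unadjusted p under 0.05. Without DMSO replicate 1, MM-401 gave 1 to 3 called genes in each tested list. Background shares of all genes are those given with the member counts against DMSO, and the shares called without a library or with the replicate block moved too. For MI-2-2 they were 26.2% and 20.7% of genes without MI-2-2 replicate 1 and 2, against 41.4% with both.

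Among 12 receptors, JAKs and STATs, 7 rose and 1 fell with EPZ5676, 9 rose and 1 fell with MI-2-2, and 7 rose with iBET, and the median log2 difference was 0.66, 0.78 and 0.55 against -0.06, -0.05 and -0.04 over all genes. Ifnlr1, a chain of the lambda interferon receptor, was at 4.4 and 0.527 CPM in DMSO and rose 16.3-fold with EPZ5676, to 38.2 and 43.9 CPM (adjusted p = 0.00444, edgeR), and 16.4-fold with MI-2-2. Its iBET levels of 1.46 and 0.918 CPM overlapped DMSO. Jak2, a kinase of the interferon gamma receptor, rose 2.62-fold with EPZ5676 and 2.89-fold with MI-2-2. Ifngr2 and Il10rb, second chains of the gamma and lambda receptors, rose 1.95-fold and 2.07-fold with iBET. Outside the naming rule, and chosen after its values were seen, Ifngr1 was the gene that fell, from 487 and 610 CPM to 223 and 242 with EPZ5676 and 288 and 295 with MI-2-2. Without iBET replicate 1 or 2, the iBET count of this list was 1 or 0.

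Among 23 sensors, adaptors and kinases above Irf3, Irf5 and Irf7, 9 rose and 3 fell with EPZ5676, and 11 rose and 1 fell with MI-2-2. With iBET 2 rose and 2 fell, beside 6.38% and 7.54% of all genes. Tlr7, the endosomal receptor for single-stranded RNA, rose from 2.45 and 3.16 CPM to 32.8 and 62.8 with EPZ5676 (17-fold, adjusted p = 0.00242, edgeR) and to 27.9 and 71.4 with MI-2-2. Ddx58, which encodes the RNA sensor RIG-I, rose 3.93-fold and 4.64-fold. With iBET, Mb21d1, the DNA sensor cGAS, rose 1.7-fold, and Ticam2, a Tlr4 adaptor, fell by 1.52 on the log2 scale. The EPZ5676 count of 12 became 7 without EPZ5676 replicate 1 and 3 without replicate 2, and the iBET count of 4 became 9 and 7 without DMSO replicate 1 and 2, and 0 and 1 without iBET replicate 1 and 2.

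Of 11 tested partners of Irf4 and Irf8, 6 rose and 1 fell with EPZ5676, 6 rose and 2 fell with MI-2-2, and 0 were called with iBET, where 1 had an unadjusted p under 0.05 and DESeq2 called 0, and without DMSO replicate 1 or 2 the iBET count was 2. Bcl6, a transcriptional repressor of germinal center B cells, went from 0.584 and 0.527 CPM in DMSO to 15.8 and 15.8 with EPZ5676 (28-fold, adjusted p = 0.000212, edgeR) and 17.1 and 25.1 with MI-2-2. Id2, an inhibitor of E proteins that does not itself bind DNA, rose 23.1-fold and 14.7-fold. The counts of this list therefore reach beyond factors that bind DNA with Irf4 or Irf8. Spi1, which encodes PU.1 and was looked up after the fit, stood at 195 and 251 CPM in DMSO and rose 2.04-fold with EPZ5676 and 1.86-fold with MI-2-2. In iBET, where Irf8 was highest, Spi1 was at 210 and 231 CPM, within the DMSO range.

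Of 15 corepressors and feedback inhibitors, 6, 8 and 4 rose with EPZ5676, MI-2-2 and iBET, in that order, and 0 fell. With the replicate block the counts of EPZ5676 and iBET were 11 and 8, the latter with 3 lower, beside 47.6% and 23.8% of all genes called, against 38.1% and 13.9% without it. Trim30a, an interferon-induced brake on Toll-like receptor signalling, rose 2.63-fold, 4.17-fold and 4.12-fold, and Socs3, an inhibitor of JAK kinases, 3.56-fold, 4.2-fold and 3.51-fold. The EPZ5676 count was 3 without EPZ5676 replicate 2, the MI-2-2 count 4 and 5 without MI-2-2 replicate 1 and 2 and 5 without DMSO replicate 2, and the iBET count 1 without either iBET replicate.

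**Figure D4:**
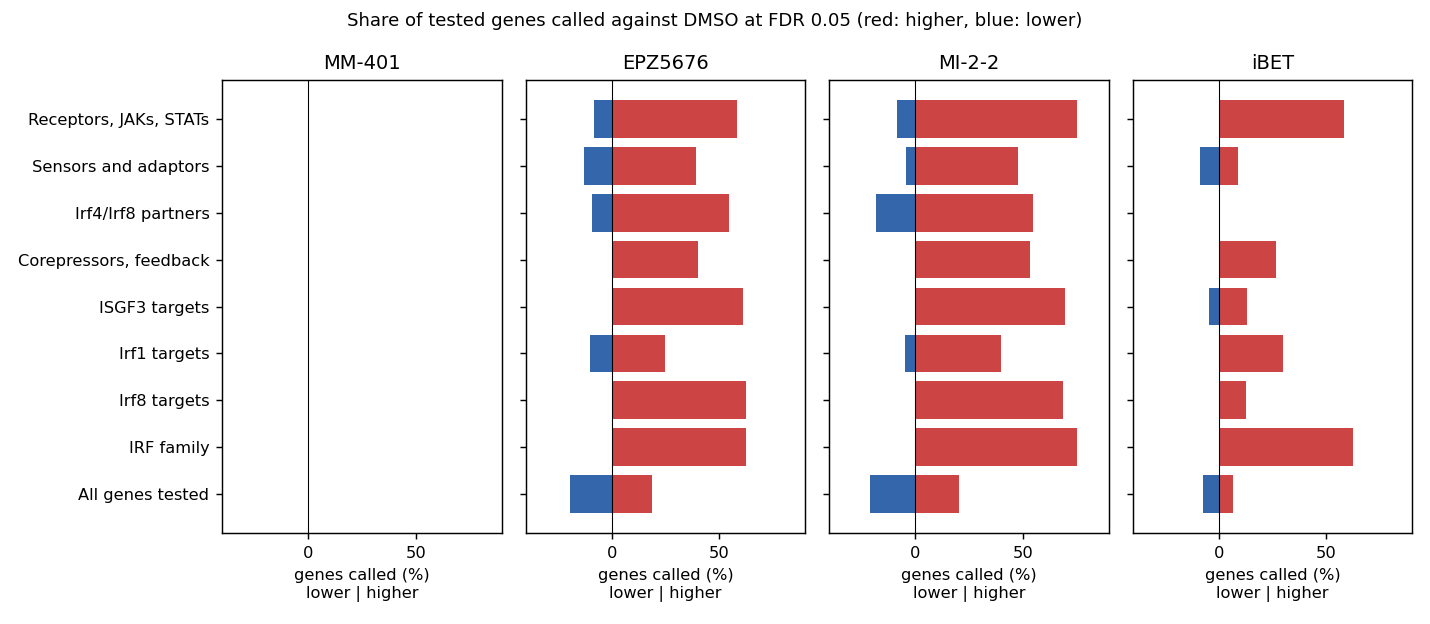
Share of tested genes called against DMSO in each list, as percent, with genes called higher in red to the right and lower in blue to the left, and all genes tested in the bottom bar. ISGF3 targets reach 14 (EPZ5676), 16 (MI-2-2) and 3 (iBET) genes called higher of 23, while the receptor list has 7, 9 and 7 of 12.

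Targets of ISGF3, the antiviral genes reached through Irf9, gave 14 of 23 tested genes higher and 0 lower with EPZ5676 and 16 higher and 0 lower with MI-2-2, with median log2 differences of 1.76 and 2.59. iBET gave 3 higher and 1 lower, beside 6.38% and 7.54% of all genes, with a median of 0.44. Oas2, an antiviral nucleotide synthetase, was at 8.41 and 1.25 CPM in DMSO, 68.5 and 61.2 in EPZ5676 and 89.8 and 69.8 in MI-2-2 (13.2-fold and 16.3-fold). Its iBET levels of 8.53 and 8.15 CPM overlapped DMSO. Ifi27l2a rose 15.9-fold with EPZ5676, to 13 and 21.1 CPM. The MI-2-2 replicates differed at 2 of these genes: Ifit1 was at 8.41 and 1.68 CPM and Oasl2 at 16.9 and 2.85, both below 0.1 CPM in DMSO, too few reads for a fold change. With iBET, Ifit2, of the same family as Ifit1, fell from 6.85 and 8.92 CPM to 1.02 and 1.53 (adjusted p = 0.00475, edgeR), while Parp14, a mono-ADP-ribosyltransferase, rose 2.33-fold. The MI-2-2 count was 10 without MI-2-2 replicate 1. The iBET count of 4 was 10 without DMSO replicate 1, and 2 and 1 without iBET replicate 1 and 2. Against EPZ5676, iBET had 12 of the 23 lower and 1 higher, beside 19.1% and 18.5% of all genes, and against MI-2-2 it had 16 lower and 0 higher, beside 19.7% and 19.1%.

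Of 20 tested Irf1 targets (antigen presentation and GTPases), 5 rose and 2 fell with EPZ5676, beside 18.7% and 19.4% of all genes. MI-2-2 gave 8 higher and 1 lower, beside 20.2% and 21.2%, and iBET 6 higher and 0 lower, beside 6.38% and 7.54%. Nlrc5, the activator of class I antigen presentation genes, rose 4.42-fold with EPZ5676 and 7.53-fold with MI-2-2 (adjusted p = 0.0151 and 0.00456, edgeR). Gbp3, a guanylate-binding GTPase, fell by 2 and 1.76 on the log2 scale, from DMSO levels of 8.29 and 23.4 CPM that were far apart. With iBET, Gbp5, of the same family, rose 3.82-fold and Psmb9, an immunoproteasome subunit, 2.2-fold. The EPZ5676 count was 3 without either EPZ5676 replicate, and the MI-2-2 count 4 without either MI-2-2 replicate. The iBET count was 11 with the replicate block, 10 without DMSO replicate 1, and 0 without either iBET replicate.

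Irf8 targets were called with all 3 of these inhibitors. They were listed as genes that Irf8 is known to regulate, with no direction set, so a rise is not by itself a response to Irf8. Of 16 tested, 10 rose with EPZ5676 and 11 with MI-2-2, where Irf8 was not called, beside 18.7% and 20.2% of all genes. With iBET, where Irf8 rose, 2 rose, beside 6.38% of all genes. With each of these inhibitors 0 were lower. Cybb, the catalytic subunit of the phagocyte NADPH oxidase, went from 48.8 and 30.7 CPM in DMSO to 1410 and 1960 with EPZ5676 (adjusted p = 0.000212, edgeR) and 1250 and 1760 with MI-2-2, and stood at 29.2 and 28.9 CPM in iBET. Il18, an inflammatory cytokine, rose 26.8-fold and 51.4-fold, from 0.35 and 0.192 CPM in DMSO. The 2 genes called with iBET were Asah1, acid ceramidase, up 1.49-fold, and Naip5, a flagellin sensor of the inflammasome, up 1.82-fold. Cybb is abundant in neutrophils as well, whose markers moved in the same libraries, and their part was not tested. The MI-2-2 count was 7 without MI-2-2 replicate 2, and the iBET count 5 without DMSO replicate 1, 4 with the replicate block and 0 without either iBET replicate.

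Across the 10 libraries, which share their treatments, Irf1, Irf2, Irf7 and Irf9 ran together, with Pearson r of log2 CPM from 0.884 (Irf1 with Irf2) to 0.957 (Irf2 with Irf7). Irf4 correlated with them at 0.655 to 0.855. Irf8 stood outside this group, at -0.181 with Irf9, -0.145 with Irf4 and 0.161 with Irf7, and was closest to Irf5 at 0.628 and Irf3 at 0.617. These values are descriptions over n = 10 libraries from 5 treatments.

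The genes most like each member over the same 10 libraries, out of those with a mean of at least 5 CPM, were also listed. For Irf8 they were Arhgap17 (r = 0.986), Phc2 (0.966) and Ifnar1, a chain of the type I interferon receptor (0.965). Ifnar1 was at 162 and 179 CPM in iBET and at 79 and 109 in DMSO. For Irf4 the nearest was Mmp8, a neutrophil collagenase and 1 of the neutrophil markers (0.96), then Cyp4f18 (0.959) and Fam53c (0.956). Irf7 was nearest to Slc25a11 (0.982), Plekhg3 (0.98) and Ap2a2 (0.979), Irf9 to Bin2 (0.982), Uba7 (0.98), the activating enzyme for ISG15, and Mgat4b (0.979), and Irf1 to Acvr1b (0.978), Oas1c (0.978) and St3gal1 (0.977). Irf2 was nearest to Ralgps1 (0.996), Ulk1 (0.988) and Ap2a2 (0.987), and Irf5 to Map4 (0.962), Smpd2 (0.957) and Trp53bp2 (0.955). The closest to Irf3 were Psme2 (0.94), Id1 (0.916) and AU041133 (0.91).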

How the data were processed

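RNA was isolated from MAF9 cells with DNase treatment, and Illumina TruSeq libraries were sequenced. The authors deposited raw read counts per gene for the 10 libraries, and their processing notes name TopHat2, Subread and DESeq with the mm9 genome. Roles and versions of these tools, the annotation, the strand setting and the handling of reads shared between genes were not given in the sources used here. Reads from overlapping or antisense genes can therefore not be told apart from those of a member.

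Counts were analysed as deposited with edgeR 4.0.16 in R 4.3.3. Genes were filtered with filterByExpr, libraries were scaled by TMM, and 1 quasi-likelihood model with a term for each of the 5 groups was fitted to all 10 libraries. Each of 10 pairwise comparisons was adjusted by Benjamini-Hochberg over the 12971 genes tested, at 0.05. CPM in the text are TMM-normalized, and SE and 95% intervals come from the fit. Levels per kilobase used exon lengths from GENCODE M21, and promoters came from RefSeq. With 20394762 to 29473127 counts per library, a single read is 0.0339 to 0.049 CPM before TMM scaling. The scripts were tested on simulated data.

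The 8 members were described, and from each list the 2 called genes against DMSO with the largest change, at least 5 CPM on average in the higher group and no overlap with DMSO were named, with the 3 genes most correlated with each member. Some genes are not reported here. The members and lists were chosen with earlier results of these data known. Differences between replicates 1 and 2 correlated between all 10 pairs of groups (r = 0.278 to 0.666), so same-numbered libraries were treated as pairs in an alternative fit with the replicate number as a block. The labels do not say what the numbers share, and DMSO replicate 2 is male where the other libraries numbered 2 are female. Fits with the block against DMSO carry this limit. In fits without DMSO replicate 1 the only control left is male. Other alternatives were total-count scaling, DESeq2 size factors, DESeq2 1.42.0, no filter, a filter of 1 CPM in 2 libraries, fits of only the 2 groups compared, and leaving out each library.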

Additional observations from a re-analysis of the deposited data

How the results depend on the processing

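The number of members called moved by over 1.5 times as follows. Against DMSO, a fit of only the 2 groups gave 2 (EPZ5676), 3 (MI-2-2) and 0 (iBET, 5 members at an unadjusted p under 0.05), beside 9.34%, 9.12% and 0% of all genes called, and iBET gave 3 with total-count scaling, 3 with DESeq2 size factors and 3 with no low-count filter. A fit of only the 2 groups gave 5 for iBET against MM-401 and 4 for iBET against EPZ5676, beside 35% and 45% of all genes, and the replicate block gave 4 for the latter, beside 47.8%. In the main fit, 11.4% of genes were called for iBET against MM-401 and 37.6% for iBET against EPZ5676. The cause was not tested. A fit of only the 2 groups has fewer samples. For iBET against MM-401 or EPZ5676 it also leaves out the DMSO libraries, whose replicates lay farthest apart. Leaving out 1 library gave 0 to 1 members for MM-401, 2 to 6 for EPZ5676, 5 to 7 for MI-2-2 and 0 to 7 for iBET against DMSO, 1 to 4 for EPZ5676, 2 to 5 for MI-2-2 and 0 to 2 for iBET against MM-401, and 1 to 2 for iBET against EPZ5676 and 0 to 3 against MI-2-2. MI-2-2 against EPZ5676 gave 0 throughout. The replicate block changed no member's call other than those given with the results.

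Leaving out 1 library turned 19 member differences over the 10 comparisons, none of them called, and 7 of these were with MM-401 against DMSO. They include Irf8 against DMSO with MM-401 (-0.89 to 0.63), EPZ5676 (-0.95 to 0.62) and MI-2-2 (-0.42 to 1.15, and -0.06 without MI-2-2 replicate 2), and Irf4 with iBET (-0.86 to 1.31). Total-count scaling moved the median of all genes from -0.0577 to -0.227 with EPZ5676 and from -0.0536 to -0.205 with MI-2-2, and the share of calls that were higher from 49.2% to 34.7% and from 48.9% to 37.1%. Other settings turned 7 member differences, none called, among them Irf3 with EPZ5676 against DMSO under total-count scaling (0.13 to -0.04). Depth limits Irf4, which had few reads in most libraries. With 2 libraries a group, 1 library can decide a call.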
